A study of Mus musculus with 6 samples.

Results

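The genes described here are 10 whose transcripts are used as a readout of the ERK pathway. The phosphatase genes Dusp4, Dusp5 and Dusp6 and the Sprouty genes Spry1, Spry2 and Spry4 encode brakes on it. So do the Sprouty-related genes Spred1 and Spred2, while Etv4 and Etv5 encode ETS transcription factors. All 10 genes were chosen by name for their known roles, with earlier results of these data in view. Each symbol matched 1 of the 54453 Ensembl genes in the tables, and all 10 were among the 14169 genes that passed the filter on low counts. The libraries came from 3 mouse pancreatic tumour organoid lines, T91, T113 and T118, described as PDAC (pancreatic ductal adenocarcinoma) organoids of genotype KPF/FC, a term the labels leave unexplained. T91 was from a female at passage 10, T118 from a male at passage 11 and T113 from a male at passage 13. Each line gave 1 library with a short hairpin against Renilla, a luciferase that mouse cells lack, and 1 with hairpin 5523 against Scrib, a basolateral polarity scaffold. That makes 3 libraries a group, matched by line, with no repeat culture within a line and no second Scrib hairpin. Ages of the mice are not stated, and the labels speak of infection with virus where the design text speaks of plasmids.

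Growth factor receptors switch on Ras, which acts through Raf and MEK kinases to activate the kinase ERK. ERK then raises the transcription of its own inhibitors, so that transcripts of this kind are widely used as a gauge of ERK output. DUSP phosphatases take phosphate off ERK itself, Sprouty proteins interrupt signalling between receptor and Raf, and Spred proteins bring the Ras inhibitor neurofibromin to the membrane. Etv4 and Etv5 are ETS factors of the PEA3 group that carry part of the transcriptional response. In pancreatic ductal adenocarcinoma, where Ras is usually mutant, such feedback genes are commonly expressed. Only RNA was measured here, and neither ERK phosphorylation nor protein was.

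The libraries held between 24035559 and 36235773 estimated counts, so that a single count stood for 0.0269 to 0.0421 CPM, which is the count relative to the TMM-normalised library size. Scrib, the target, stood at 177, 157 and 158 CPM in the Renilla libraries of T91, T113 and T118 and at 29.7, 35.0 and 30.0 CPM in the Scrib libraries. Knockdown changed it by -2.38 on the log2 scale (SE, the standard error, 0.12), with an adjusted p of 0.00582 by edgeR's quasi-likelihood test. The 8 epithelial and ductal markers checked were all present, with a summed level between 7477 and 12716 unnormalised CPM in every library. The 8 fibroblast markers summed to between 1.10 and 1.74 CPM in the Renilla libraries and between 1.41 and 7.61 CPM in the Scrib libraries, and Lum was at 0 in all 6. Whether these scarce transcripts have a part in the differences described was not tested. The 8 immune markers summed to at most 4.44 and 5.95 CPM in the same groups, and the 6 endocrine markers to at most 9.91 and 7.81, with Ins1 and Ins2 at 0. The 5 neural and Schwann cell markers summed to between 75.4 and 104 CPM in the Renilla libraries and between 72.4 and 108 in the Scrib libraries. Nearly all of that was Mbp, the gene of myelin basic protein (71.3 to 107 CPM), while Sox10, a defining factor of Schwann cells, was at 0. Mitochondrial transcripts took between 1.69% and 2.32% of counts.

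Per unit of transcript length, Dusp6 and Spred2 were the most abundant of the 10 and Spry4 the least. Levels were put on a TPM-like scale, in which every library has the same sum, by dividing CPM by the median length of each gene's protein-coding transcripts. On that scale Dusp6 averaged 44.8 ± 4.71 over the 6 libraries (SD, n = 6), Spred2 44.8 ± 7.27, Etv4 40.3 ± 6.02 and Dusp4 33.2 ± 7.26. Spry2 followed at 32.6 ± 3.26, Etv5 at 29.2 ± 4.55, Spred1 at 25.9 ± 5.72, Spry1 at 23.02 ± 4.61, Dusp5 at 15.3 ± 5.07 and Spry4 at 5.49 ± 0.865. The ranges over libraries of all neighbours in this order overlapped, except those of Dusp5 and Spry4. With the longest coding transcript as the length Spred2 moved from the 2nd to the 5th place at 43.4, while Dusp6 stayed the highest at 62.4 and Spry4 the lowest at 8.30. Each library was rescaled after the division, so values from different length settings are compared by order only. The 6 libraries are 3 lines with 2 hairpins each, so the SD mixes both sources.

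No member passed the test for an effect of Scrib knockdown. Of the 10, 7 had a fitted log2 fold change below 0, as had 51.8% of all genes, and 3 had one above, with a median of -0.12 against -0.01 over all genes tested. In a fit without T91, 5 of the 10 lay below 0 and their median was -0.028, whereas without T113 or T118 it was 7, with medians of -0.10 and -0.13. By edgeR's quasi-likelihood test with the line as a term and Benjamini-Hochberg adjustment over all 14169 genes, 0 members were called, where 0.00706% of all genes were (1 gene, Scrib). DESeq2 and limma-voom also called 0 members. At an unadjusted p under 0.05 there were 2 members, Dusp4 and Spry4, both lower. The share of all genes lower at that p was 5.06%. In 8 of the 10 the 95% interval of the fold change, which is not adjusted for the number of genes, includes 0. The widest interval, that of Dusp5, ran from -0.63 to 0.17, so that the direction of its difference was not resolved with 3 lines. In bulk RNA of this kind, fewer cells that express a gene and less of its RNA per cell cannot be told apart.

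**Figure D1:**
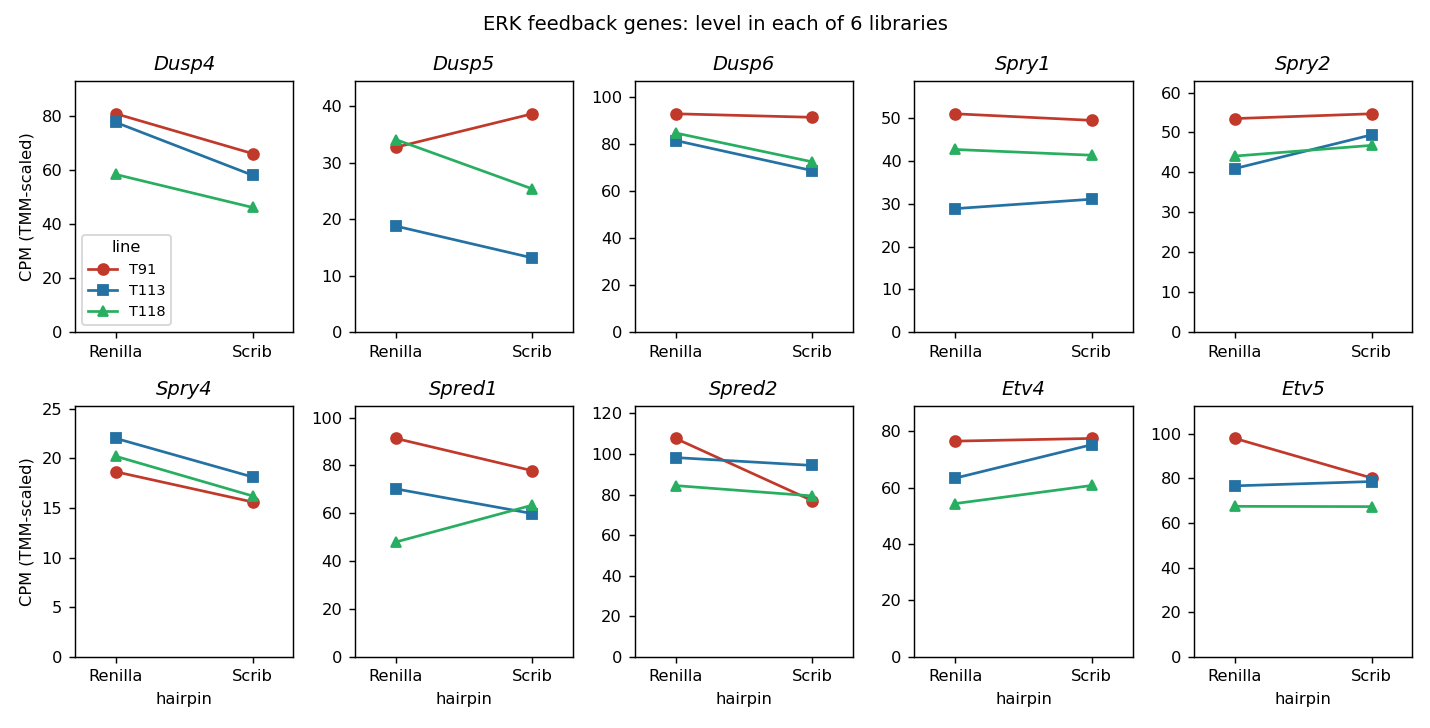
Level of each gene in TMM-scaled CPM (vertical axes, each starting at 0) with the Renilla and the Scrib hairpin (horizontal axes). Each point is 1 library, and a segment joins the libraries of a line. For Spry4 the 3 Scrib libraries lie between 15.6 and 18.1 CPM, below the 3 Renilla libraries at 18.6 to 22.0 CPM, and Dusp5 and Spred1 have segments of opposite slope.

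Among the phosphatases, Dusp4 was lower with the Scrib hairpin in each line. Dusp4 encodes a nuclear phosphatase of ERK and related kinases (ENSMUSG00000031530, chromosome 8, 34807297 to 34819894, plus strand, GRCm38). The Renilla library held 80.7 CPM and the Scrib library 66.0 CPM in T91, with 77.5 and 58.0 in T113 and 58.3 and 46.1 in T118. The groups overlapped, because the Renilla library of T118 lay below the Scrib library of T91. The difference was nonetheless of like size in each line, with log2 ratios of -0.29, -0.42 and -0.34. The fitted log2 fold change was -0.35 (SE 0.09, 95% interval -0.57 to -0.13), the largest in size of the 10. It had an unadjusted p of 0.00748 and an adjusted p of 0.647, ranking 163rd by p among all genes tested. Over the alternatives the adjusted p of Dusp4 ran from 0.111 to 1.

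Dusp6, the mainly cytoplasmic phosphatase that is highly selective for ERK, lies on chromosome 10 (ENSMUSG00000019960, 99263231 to 99267489, plus strand). It stood at 93.0 and 91.5 CPM in T91 (Renilla, then Scrib hairpin), at 81.6 and 68.8 in T113 and at 84.8 and 72.5 in T118. T91 was thus almost level between hairpins, whereas in T113 and T118 the Scrib library was lower. The fitted log2 fold change was -0.16 (SE 0.10) and an adjusted p of 0.783.

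Dusp5 encodes a nuclear phosphatase specific for ERK, and its direction was not shared by the lines (ENSMUSG00000034765, chromosome 19, 53529109 to 53542431, plus strand). It stood at 32.7 and 38.7 CPM in T91, at 18.8 and 13.1 in T113 and at 34.1 and 25.4 in T118. The Scrib library was the higher one in T91 and the lower one in T113 and T118. For T91, T113 and T118 the log2 ratios were 0.24, -0.51 and -0.43, and counting error alone gave 95% intervals of 0.11 to 0.37, -0.69 to -0.34 and -0.57 to -0.29. These intervals (exact binomial) leave out variation between cultures, which was not measured, and reads are not independent molecules. Fitted over the lines the log2 fold change was -0.23 (SE 0.17) and an adjusted p of 0.805. A fit without T91 gave -0.47, and a fit without T113 gave -0.09.

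Dusp5 and Spry1 were the 2 members called by the test of both line terms together, and their RefSeq promoters (GRCm38.p6, plus strand, 5′ to 3′) are shown for that reason, once those values were known. RefSeq's table held 7 of the 10 members, which are Dusp5, Dusp6, Spry1, Spry2, Spred1, Spred2 and Etv5. Each stretch starts 250 bases before the RefSeq start site, at chr19:53528895-53529108 for Dusp5, where it ends before the GENCODE gene start, and chr3:37639697-37639946 for Spry1. Capitals mark CArG boxes, the element bound by serum response factor, which is known to act with ETS factors at genes induced by ERK.
Dusp5: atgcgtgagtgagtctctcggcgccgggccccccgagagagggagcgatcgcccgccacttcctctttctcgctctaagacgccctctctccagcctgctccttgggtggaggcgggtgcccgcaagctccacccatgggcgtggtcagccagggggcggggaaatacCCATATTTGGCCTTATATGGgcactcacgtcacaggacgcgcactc
Spry1: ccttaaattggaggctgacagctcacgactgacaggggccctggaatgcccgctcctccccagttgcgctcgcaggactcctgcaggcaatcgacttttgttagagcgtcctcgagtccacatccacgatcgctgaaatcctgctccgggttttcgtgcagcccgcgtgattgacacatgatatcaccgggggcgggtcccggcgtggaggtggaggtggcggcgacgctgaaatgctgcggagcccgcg

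The Dusp5 stretch holds 2 adjoining CArG boxes, which begin 82 and 72 bases before the RefSeq start, and the Spry1 stretch holds 0. Of the 7 members matched, Dusp5 was the 1 with such a box in the 250 bases before its start, and 1.47% of the 32851 promoters in the table hold 1 or more there. The CArG box reads alike on both strands. It was searched for after the Dusp5 sequence had been seen. The ETS core GGAA, searched on both strands like the motifs that follow, was in 7 of the 7 members, as in 93.4% of all promoters. Its longer form GGAAG was in 5 (64.1% of all). A member was counted if any of its promoters held the motif, while the shares are of promoters. Etv5 has more than 1 promoter entry, and the one at 22439521 held 0 matches of either form. The flanked ETS form CCGGAA and the AP-1 element TGACTCA were in 0 of the 7 and in 12.03% and 4.46% of all promoters. Motifs containing or overlapping these count again. In all 12 motifs were looked at, most of them after the sequences had been seen. A GC box, GGGGCGGGG, was in 1 member (Dusp5) and in 10.4% of all promoters. The others (CCGGAAG, CCGGAAGT, CACTTCCG, TGACGTCA, TTTCCTCC and GCCATNTTG) were in 0 members and in 6.91%, 2.88%, 2.49%, 1.55%, 2.65% and 1.33% of all promoters. These are matches of letters in a short window and say nothing of binding.

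Spry1 varied with the line and had nearly equal levels with both hairpins. The gene, an inhibitor of receptor signalling to Ras, lies on chromosome 3 (ENSMUSG00000037211, 37639947 to 37644598, plus strand). It stood at 51.0 and 49.5 CPM in T91, at 28.9 and 31.0 in T113 and at 42.7 and 41.3 in T118. The line accounted for 98.7% of the variance of its log2 CPM. The test of both line terms gave Spry1 an adjusted p of 0.0194 and Dusp5 one of 0.0259 by edgeR's quasi-likelihood test, where 14% of all genes were called. In T113 Spry1 was lower than in T91 by a log2 difference of -0.75 (SE 0.12), and Dusp5 by -1.19 with one of 0.20 (adjusted p of 0.0164 and 0.0228). Of the 10 members 2 were called between T113 and T91, where 6.06% of all genes were. Between T118 and T113 the same 2 were called, with log2 differences of 0.49 (SE 0.12) for Spry1 and 0.90 (0.20) for Dusp5, and 10.2% of all genes were. T118 and T91 did not differ beyond the spread for either gene (adjusted p of 0.228 for Spry1 and 0.429 for Dusp5). Without the Scrib library of T113 the line test called 0 members, and without its Renilla library it called 1, Dusp5. An antisense gene overlaps each of them in exons, Gm42922 for Spry1 and AC137853.2 for Dusp5, with 41 and 34 counts over all 6 libraries against 7101 and 4689 for the members.

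Of the other Sprouty genes, which act at the same level as Spry1, Spry2 had the higher value and Spry4 the lower value with the Scrib hairpin in each line. Spry2 (ENSMUSG00000022114, chromosome 14, 105891947 to 105896819, minus strand) stood at 53.5 and 54.7 CPM in T91, at 41.0 and 49.4 in T113 and at 44.1 and 46.8 in T118. Its Scrib library was the higher one in each line, by log2 ratios from 0.03 to 0.27, with a fitted value of 0.13, a standard error of 0.10 and an adjusted p of 0.810. Without T113 the fitted value was 0.062. Spry4 (ENSMUSG00000024427, chromosome 18, 38586247 to 38601415, minus strand) stood at 18.6 and 15.6 CPM in T91, at 22.0 and 18.1 in T113 and at 20.2 and 16.2 in T118. It was the 1 member whose Renilla and Scrib libraries did not overlap, which holds for 2.14% of all genes in this direction. The log2 ratios were -0.26, -0.28 and -0.32, so that the hairpin accounted for 69.3% of its variance and the remainder for 0.539%. The fitted log2 fold change was -0.28 (SE 0.11, 95% interval -0.55 to -0.02), an unadjusted p of 0.0399 and an adjusted p of 0.748. The line test did not call Spry4 (adjusted p of 0.482).

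Of the Spred genes, Spred1 had ratios of opposite sign among the lines and Spred2 had its lowest ratio in T91. Spred1 (ENSMUSG00000027351, chromosome 2, 117121374 to 117182279, plus strand) stood at 91.3 and 77.8 CPM in T91, at 70.2 and 59.9 in T113 and at 48.0 and 63.4 in T118. The T118 Scrib library was the higher of its line, with a log2 ratio of 0.40 against -0.23 in T91 and -0.23 in T113. The 3 counting intervals were 0.30 to 0.50, -0.32 to -0.14 and -0.32 to -0.14. The fitted log2 fold change was -0.02 (SE 0.15, 95% interval -0.38 to 0.33). A stretch of 169 bases of its transcripts matches Vps35, a gene with more counts (38082 over the 6 libraries against 12159 for Spred1), at 95.3% identity, and whether reads were split between them was not tested. The spread between lines in the Renilla libraries (48.0 to 91.3 CPM) was wider than in the Scrib libraries (59.9 to 77.8 CPM). Spred2 (ENSMUSG00000045671, chromosome 11, 19924375 to 20024026, plus strand) stood at 107.7 and 77.1 CPM in T91, at 98.2 and 94.4 in T113 and at 84.4 and 79.3 in T118. Its log2 ratio was -0.48 in T91, against -0.06 and -0.09 in T113 and T118. The fitted value was -0.21 (SE 0.12) and an adjusted p of 0.783, and -0.07 in a fit without T91.

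**Figure D2:**
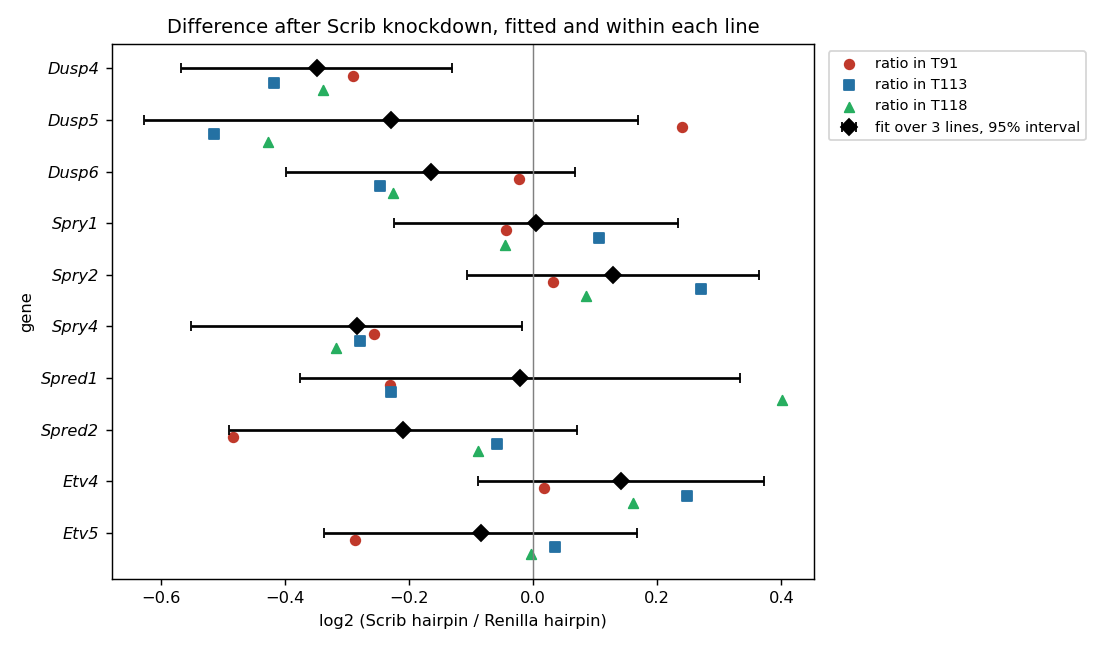
Log2 ratio of the Scrib to the Renilla hairpin (horizontal axis) for each gene (vertical axis). Black diamonds are the fit over 3 lines with its 95% interval, and coloured points are the ratios within single lines. The 3 points of Dusp4 and of Spry4 lie close together below 0, and those of Dusp5 and Spred1 lie on both sides of it.

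The ETS factor genes Etv4 and Etv5 were not called after knockdown. Etv4 (ENSMUSG00000017724, chromosome 11, 101769742 to 101785371, minus strand) stood at 76.5 and 77.4 CPM in T91, at 63.4 and 75.2 in T113 and at 54.3 and 60.7 in T118. The Scrib library was the higher one in each line, by log2 ratios of 0.02, 0.25 and 0.16. Fitted over lines, Etv4 had a log2 fold change of 0.14 (SE 0.10, 95% interval -0.09 to 0.37) and an adjusted p of 0.803, and 0.093 in a fit without T113. Etv5 (ENSMUSG00000013089, chromosome 16, 22381309 to 22439719, minus strand) stood at 98.0 and 80.2 CPM in T91, at 76.7 and 78.6 in T113 and at 67.5 and 67.4 in T118. Only T91 showed a ratio beyond counting error, at -0.29, and the fitted value was -0.08 (SE 0.10) and an adjusted p of 0.874. The gene Gm4798 shares 1700 bases with Etv5 at 98.6% identity but had 0 counts in all 6 libraries.

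Counting directions over the 10 members, 4 were lower with the Scrib hairpin in all 3 lines (Dusp4, Dusp6, Spry4 and Spred2) and 2 were higher in all 3 (Spry2 and Etv4). Of all genes, 15.5% were lower and 14.7% higher in all 3 lines. The other 4 members had ratios of both signs. In each line the ratios of 5 members lay below 0 beyond counting error, and above 0 there was 1 in T91 (Dusp5), 2 in T113 (Spry2 and Etv4) and 2 in T118 (Spred1 and Etv4). Of all genes, 27%, 24% and 27.5% lay below 0 by that rule in T91, T113 and T118, and 25%, 23.8% and 28.1% above. These intervals narrow as counts grow, and the levels of the members and of all genes were not matched. Within T91 the 5 lower members were Dusp4, Spry4, Spred1, Spred2 and Etv5, and within T113 they were the 3 phosphatases, Spry4 and Spred1. Within T118 they were the 3 phosphatases, Spry4 and Spred2. In the order T91, T113, T118 the median ratio of the members was -0.14, -0.14 and -0.07, and that of the phosphatases alone was -0.02, -0.42 and -0.34. Whether the effect of the hairpin differed between lines could not be tested, since each line had 1 library per hairpin.

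Between lines, 6 of the 10 members had both T91 libraries above all 4 others, against 13.1% of all genes. These were Dusp6, Spry1, Spry2, Etv4, Etv5 and Spred1, of which the line test called Spry1. In the lists described below it held for 3 of 9 further Dusp and Spred genes and 4 of 14 other ERK-responsive genes. It also held for 4 of 15 other negative regulators, 2 of 11 other ETS factors, 2 of 11 receptors and 2 of 19 core genes. This count was not planned and was made for T91 alone. Its margin was small for Etv4, at 76.5 CPM in the lower T91 library against 75.2 in the T113 Scrib library. For Etv5 the same libraries were compared at 80.2 and 78.6 CPM. Dusp4 did not pass the test of both line terms (adjusted p of 0.0615), but T118 was lower than T91 by a log2 difference of -0.49 (SE 0.11) (adjusted p of 0.0389), a contrast that called 11% of all genes. The other 7 members were called neither by the line test nor in any pair of lines. T91 is also the 1 line from a female and the one at the lowest passage, so line, sex and passage cannot be told apart.

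**Figure D3:**
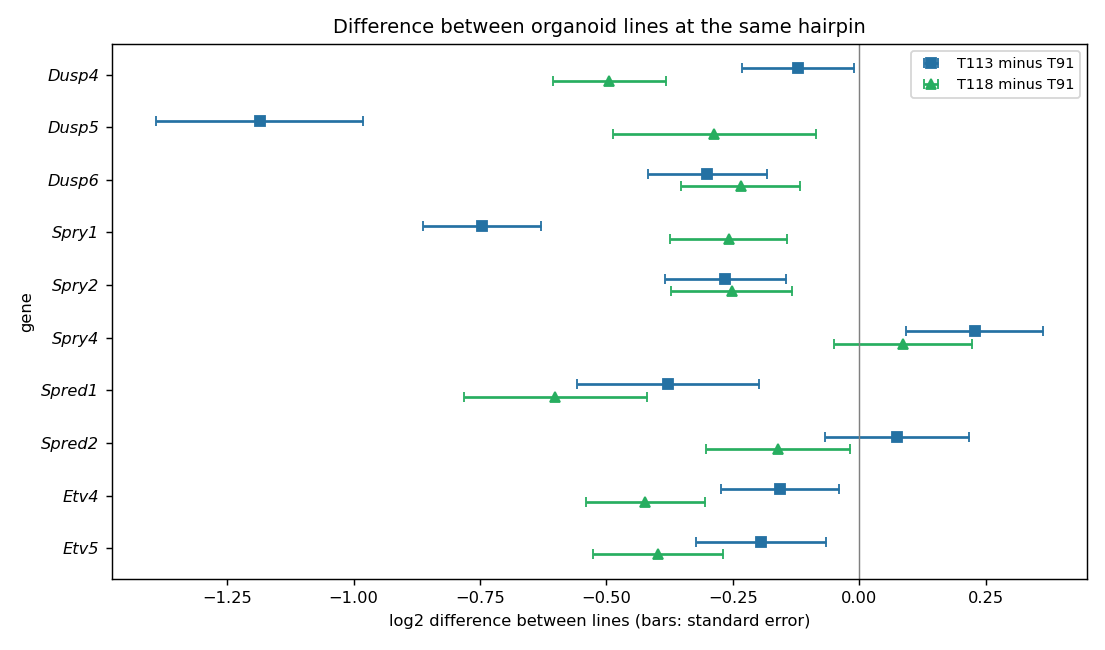
Log2 difference of T113 and of T118 from T91 at the same hairpin (horizontal axis; bars are standard errors of the fit) for each gene (vertical axis). Dusp5 at -1.19 and Spry1 at -0.75 lie farthest from 0 in T113, and Spry4 lies above 0 in both lines.

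Across the 6 libraries not all members followed 1 shared course. The Pearson correlation of log2 CPM had a median of 0.37 over the 45 pairs, of which 36 were positive. It ran from -0.74 for Spry2 with Spry4 to 0.89 for Dusp5 with Spry1. The median over pairs of all genes was not computed. These libraries share lines and hairpins and are not 6 independent points. The genes most like Dusp6 among 10240 coding genes were Dlgap4, Laptm4b, Sh3kbp1, Bloc1s6 and Ripk4, with correlations from 0.98 to 0.99. The member most like it was Dusp5, at 0.81 and 216th in that order. The genes most like the scaled mean of the members were Ankrd50, Zfp746, Synj2, Kdm5c and Clint1 (0.97 to 0.98). Both sets were picked as the highest of a long ranking over only 6 libraries, and none of these correlations was tested.

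No gene tested in the further lists of pathway genes passed the test for the hairpin in the main analysis either. Calls of these genes under the alternatives were not recorded. The core cascade from adaptor to ribosomal S6 kinase held 19 genes, of which 11 were lower, 8 higher and 0 called, around a median of -0.03, where 51.8% of all genes were lower. In that list Rps6ka3, an S6 kinase activated by ERK, had the smallest p, with a log2 fold change of -0.33 (SE 0.12, adjusted p of 0.746). Hras had one of 0.20 (0.10), and the scaffold gene Ksr1 one of -0.20 (0.10). Of 11 receptor genes tested 8 were lower, with a median of -0.21 (-0.32, -0.086 and -0.20 within T91, T113 and T118). The smallest p was that of Mst1r, the receptor of macrophage-stimulating protein, which stood at 14.5 and 10.8 CPM in T91, at 17.2 and 11.5 in T113 and at 32.5 and 16.7 in T118. Its log2 fold change was -0.66 (0.15), with an adjusted p of 0.570. Insr, the insulin receptor gene, had one of -0.31 (0.11), and Erbb3, a partner receptor of the EGF receptor family, one of -0.38 (0.13).

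Other negative regulators were lower in 12 of 15 cases, where 51.8% of all genes were, with a median of -0.14 and 0 called. Within T91, T113 and T118 the medians were -0.28, -0.048 and -0.051. Il17rd, a membrane inhibitor of FGF signalling also known as Sef, had a log2 fold change of -0.92 (SE 0.29) at low levels, at most 6.87 CPM. Cblb, a ubiquitin ligase, had one of -0.52 (0.19), and Errfi1, a feedback inhibitor of the EGF receptor, one of -0.27 (0.11). Of 9 further Dusp and Spred genes tested 5 were lower and 4 higher. Dusp14 was higher in each line, with a log2 fold change of 0.30 (0.10), while Spred3 had one of -0.66 (0.25) at under 5 CPM and Dusp16 one of -0.22 (0.10). Of 11 other ETS factors 9 were lower, with a median of -0.14. Their direction was not shared by the lines, with 10, 8 and 4 of the 11 lower in T91, T113 and T118 and medians of -0.28, -0.11 and 0.048. Spdef, a factor of secretory epithelial cells, had the largest value at -1.41 (0.47) and stood between 0.183 and 16.1 CPM, while Ehf had one of -0.19 (0.09) and Elk4 one of -0.18 (0.15).

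Genes that respond to ERK outside the feedback group had a median ratio below 0 in T113 and T118 and above 0 in T91. Of the 14 tested, 10 had a fitted value below 0, and the median was -0.18 over the lines, or 0.11, -0.39 and -0.28 for T91, T113 and T118 taken singly. Over all genes the 3 medians lay between -0.0029 and 0.0016. Ier3, an early response gene, stood at 105 and 109 CPM in T91, at 76.8 and 41.0 in T113 and at 55.6 and 33.5 in T118. Egr1, an early response transcription factor, stood at 131 and 134 CPM in T91, at 172 and 125 in T113 and at 109 and 74.4 in T118. Both were thus level in T91 and lower in the others, as were Dusp6 and, with a higher value in T91, Dusp5. Of the 14 genes, 4, 12 and 11 were lower in T91, T113 and T118. The further Dusp and Spred genes also had a median above 0 in T91 alone, with 0.16, -0.17 and -0.30 in that order. The receptor gene Epha4 went otherwise, with log2 ratios of -0.61, -0.50 and -0.004, and so did Ccnd1, with -0.16, 0.37 and 0.27. None of these passed (adjusted p of 0.748 for Ier3, 0.753 for Egr1 and 0.748 for Epha4 by edgeR).

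**Figure D4:**
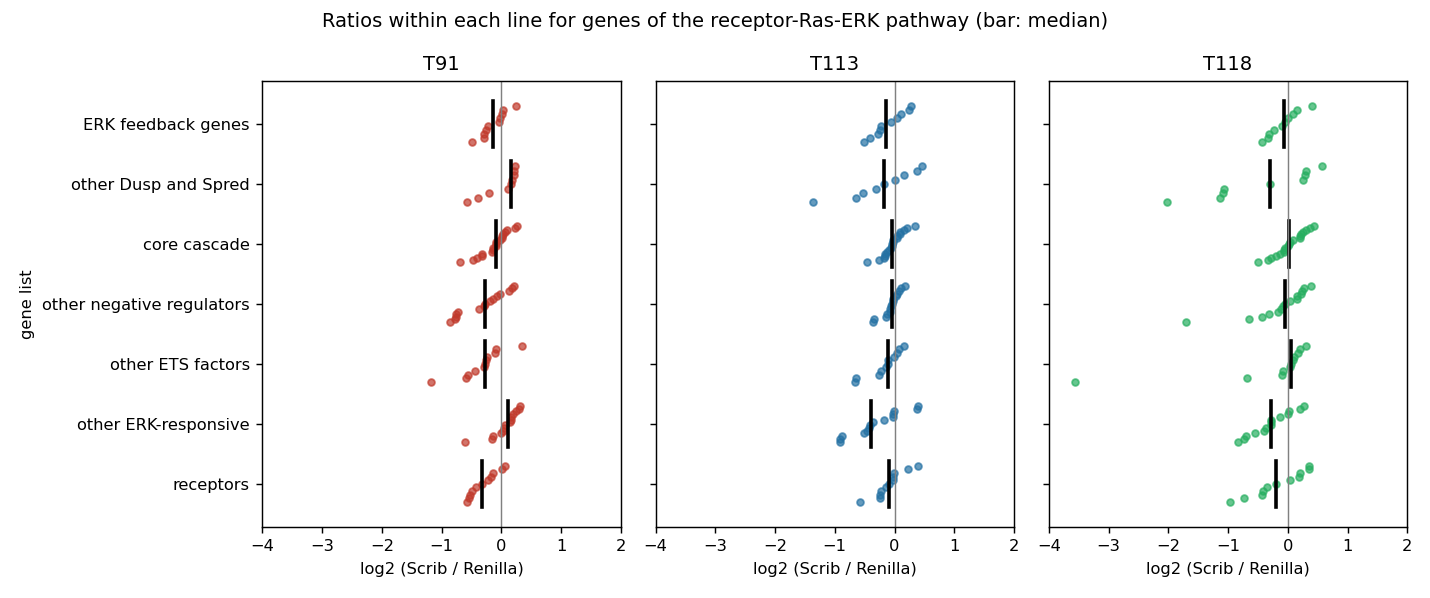
Log2 ratio of the Scrib to the Renilla hairpin within T91, T113 and T118 (horizontal axes) for the genes tested in each list (vertical axis). Points are genes and black bars are list medians. The bar of the other ERK-responsive genes stands at 0.11, -0.39 and -0.28 from left to right, and that of the feedback genes is at -0.14, -0.14 and -0.07.

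Between lines, differences were called in 5 of the 6 other lists, where the test called 14% of all genes. The line test called 5 of 11 receptor genes, 3 of 11 other ETS factors, 4 of 14 other ERK-responsive genes, 3 of 9 further Dusp and Spred genes, 1 of 15 other negative regulators and 0 of 19 core genes, against 2 of the 10 members. Epha2, which was called, is counted among both the receptors and the ERK-responsive genes. The difference between these lists was not tested. Fgfr2, an FGF receptor, stood at 27.5 and 18.9 CPM in T91 and 10.3 and 9.37 in T113, but at 0.648 and 0.512 in T118. Fgfr4 stood at 18.4 and 19.3 CPM in T91, at 2.83 and 3.71 in T113 and at 28.02 and 35.8 in T118. Among the genes the line test called was also Ets1, lower than in T91 by log2 differences of -2.72 in T113 and -1.85 in T118. Another was Lrig3, counted here with the other negative regulators, lower by -0.59 and -1.07. The cyclin gene Ccnd1 was lowest in T113, at 479 and 619 CPM against 1047 and 939 in T91 and 1026 and 1240 in T118.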

How the data were processed

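RNA-seq was analysed for 6 libraries, 3 per hairpin. Per the labels' protocols RNA was taken from organoids in Matrigel and made into Illumina mRNA libraries. The deposited values are estimated counts for Ensembl genes, left unscaled by the authors, who per the submitters' processing notes used Salmon 1.4.0 and DESeq 2 with GRCm38 (mm10). The sources used here do not give the annotation, the strand setting or the role of DESeq 2.

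Estimated counts were rounded. GENCODE M21 (GRCm38) gave positions and lengths, and a separate list of gene names gave symbols for 54131 of 54453 identifiers. Genes were filtered with filterByExpr (minimum count 10), scaled by TMM and tested with edgeR 4.0.16 (quasi-likelihood, robust, terms for line and hairpin, two-sided, Benjamini-Hochberg over 14169 genes, threshold 0.05), in R 4.3.3. Lines pair the libraries, as every line carried each hairpin; the deviations of a line's libraries from their group means correlated at 0.621 (T91), 0.666 (T113) and 0.662 (T118). The test leaves 2 residual degrees of freedom. The fit was tested on simulated data in 2 versions. One, with each gene's fitted dispersion, gave more false calls than the threshold allows. The other, adopted after it, drew dispersions around the trend and did not recover its smallest fold changes, which exceed those of the members. The p-values weigh the knockdown difference against its spread between lines, each sampled once per hairpin. That spread was moderated toward a trend over all genes, with a median of 4.43 prior degrees of freedom. For genes with like ratios in each line, such as Dusp4 and Spry4, the error is thus not their own spread alone.

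The text names all members, Scrib, up to 3 genes per further list by p for the hairpin and up to 2 by p for the line, and 5 genes by likeness to Dusp6 and to the members' mean (average log2 CPM of at least 2, prior count 2). The members and lists were chosen with earlier results of these data known. DESeq2 1.42.0, limma-voom (limma 3.58.1) and other filters, scalings and left-out lines or libraries were alternatives. Spry3 of the further lists had no matching identifier and was not analysed here.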

Additional observations from a re-analysis of the deposited data

Results flagged for a closer look

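Dusp5 and Spred1 had ratios of opposite sign in different lines, each beyond counting error. For Dusp5 the log2 ratio of the Scrib to the Renilla library was 0.24 (T91), -0.51 (T113) and -0.43 (T118). For Spred1 the values in the same order were -0.23, -0.23 and 0.40. They were singled out by intervals on opposite sides of 0, a criterion set after the values had been seen. The share of all genes that meet this criterion was not computed. In single lines, 23.8% to 28.1% of all genes lay beyond counting error in each direction. The difference between lines was not tested, since each line had 1 library per hairpin. No group was large enough for a check on single outlying libraries.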

How the results depend on the processing

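Precision is set by 3 lines with 1 library per hairpin, which leaves small differences undetectable. The knockdown test called 1 gene in the main analysis, 64 without the low-count filter, 63 by DESeq2's Wald test, 8 by limma-voom and 9 to 94 when a line was left out, but 0 members under every one of these and at a threshold of 0.1. Without the line as a replicate block, the paired structure being ignored, it called 1 gene and 0 members. The log2 fold changes of Dusp4, Dusp5, Dusp6, Spry4 and Spred2 stayed below 0 and those of Spry2 and Etv4 above 0 under all 9 alternatives. Spry1, at 0.0048 in the main analysis, was at -0.0081 without the replicate block, -0.015 without the filter and -0.0028 with an average CPM of at least 5. Leaving out a line moved Spry1 between -0.042 and 0.030, Spred1 between -0.23 and 0.088, and Etv5 between -0.14 and 0.017. For Dusp5 it gave -0.47 to -0.089, for Dusp6 -0.24 to -0.12, for Spry2 0.062 to 0.18, for Spred2 -0.28 to -0.073 and for Etv4 0.093 to 0.21. For Scrib it gave -2.48 to -2.28.

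The line test called 1989 genes, 1310 with an average CPM of at least 5 and 1274 to 4328 with a library left out, and 2 members, or 0 to 5 with a library left out. Without the filter and by DESeq2's likelihood ratio test Dusp4 was called besides Dusp5 and Spry1. With the longest coding transcript, levels per length were 62.4 for Dusp6, 60.5 for Etv4, 50.2 for Dusp4, 49.2 for Spry2, 41.9 for Etv5, 31.1 for Spry1, 23.1 for Dusp5 and 8.30 for Spry4. Dusp4, Dusp5, Spry2 and Spry4 have the same length in both settings. Their higher values come from the rescaling of each library to the same sum.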
